A study of Mus musculus with 2 samples.

Results

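Imprinted genes are read mainly from 1 parental copy, and 10 of them that act in growth were described before and after induction of adipogenesis, the formation of fat cells. They were Mest, Peg3, H19, Nnat, Grb10, Plagl1, Cdkn1c, Ndn, Sgce and Dlk1. They were found by the platform's gene symbols, as 10 of 16637 genes on the array and 14 of 29922 gene probes, and all 14 probes are described. The genes had been picked with their day 3 and day 0 values in view, so those values are a description and support no inference. The later sample was a culture of mouse embryonic fibroblasts labelled as Xbp1 knockout on day 3 of induction, and the earlier one was the same kind of culture at confluence, day 0. The day 3 cells had spent 72 h in medium with insulin at 10 µg/ml, troglitazone, an agonist of PPARγ, at 5 µM, DXM also at 5 µM, and IBMX, which inhibits the breakdown of cAMP, at 0.25 mM. Both samples are labelled as Xbp1 knockout, no cells labelled as having intact Xbp1 were analysed here, and the labels do not say how many embryos or lines the cells came from. Total RNA of each sample was hybridized to 1 single-colour array, so there is no replicate check, no p-value was computed, and every difference compares 2 arrays rather than 2 conditions.

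In mammals an imprint is a methylation mark that the egg or the sperm places on a control region, and it silences a gene on 1 parental chromosome in the offspring. Many genes read from the paternal copy act for growth of the fetus and many read from the maternal copy restrain it. In mouse fat, Mest is known as a marker of expanding adipose tissue, and Dlk1, also called Pref-1, as a surface protein of preadipocytes that holds back their differentiation.

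Among the 10 genes, Mest and Nnat were at least 2-fold higher on day 3, Peg3 and H19 were at least 2-fold lower, Ndn lay just inside the 2-fold line on the lower side, and Grb10 and Cdkn1c differed by less than 1.3-fold by their brightest probes. Plagl1, Sgce and Dlk1 did not reach the detection threshold on either day. Signals are quantile-normalized intensities, and a probe counted as detected if it read more than 122, which is the middle of the ranked gene probes and not a measure of silence. By the brightest probe of each gene, 2 of 7 detected members were 2-fold higher and 2 were 2-fold lower, while 12.8% of all 10656 detected genes were 2-fold higher and 10.3% were 2-fold lower. With dim signals raised to the threshold, the members' counts were again 2 and 2, beside 10.2% and 8.51% of all detected genes. The members were chosen on this contrast, so nothing is read from those shares. Their median log2 difference, day 3 minus day 0, was -0.32, and that of all detected genes was 0.03. The 2-fold calls depend on the processing. In the authors' own table for the series, Ndn was 2-fold lower (-1.002) and H19 was not (-0.71).

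The promoters of Mest, Nnat and Peg3, 3 of the 4 members with a 2-fold difference, are shown because an imprint is a mark on DNA. Mest has 2 well separated starts. Sequences are RefSeq's, from build GRCm38.p6, and run 5′ to 3′ on the gene's strand from 250 bases before to 50 bases after the start. Capitals mark TGCCGC, the letters bound by ZFP57, a zinc finger protein that guards methylation imprints, and TGACG, a short form of the site for the cAMP-responsive factor CREB, each on either strand.
Mest, upstream start, chr6:30733256-30733555, plus strand: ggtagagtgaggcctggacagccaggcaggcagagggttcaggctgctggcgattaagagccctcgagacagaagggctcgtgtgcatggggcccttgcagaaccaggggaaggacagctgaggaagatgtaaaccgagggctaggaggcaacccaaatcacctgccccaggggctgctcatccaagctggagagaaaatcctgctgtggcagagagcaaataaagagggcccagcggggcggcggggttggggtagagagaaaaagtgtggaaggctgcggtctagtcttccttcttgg
Mest, downstream start, chr6:30737800-30738099, plus strand: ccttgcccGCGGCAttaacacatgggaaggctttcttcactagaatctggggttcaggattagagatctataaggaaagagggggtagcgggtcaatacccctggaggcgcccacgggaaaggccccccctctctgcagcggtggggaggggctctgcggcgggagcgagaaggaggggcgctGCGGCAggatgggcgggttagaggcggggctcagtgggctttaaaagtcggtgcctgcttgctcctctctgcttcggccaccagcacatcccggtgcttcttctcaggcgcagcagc
Nnat, chr2:157559828-157560127, plus strand: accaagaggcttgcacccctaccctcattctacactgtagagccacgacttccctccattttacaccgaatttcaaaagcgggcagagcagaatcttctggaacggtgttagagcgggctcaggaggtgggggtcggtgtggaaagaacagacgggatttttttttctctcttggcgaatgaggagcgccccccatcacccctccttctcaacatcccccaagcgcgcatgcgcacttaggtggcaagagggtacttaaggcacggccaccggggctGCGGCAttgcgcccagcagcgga
Peg3, chr7:6730370-6730669, minus strand: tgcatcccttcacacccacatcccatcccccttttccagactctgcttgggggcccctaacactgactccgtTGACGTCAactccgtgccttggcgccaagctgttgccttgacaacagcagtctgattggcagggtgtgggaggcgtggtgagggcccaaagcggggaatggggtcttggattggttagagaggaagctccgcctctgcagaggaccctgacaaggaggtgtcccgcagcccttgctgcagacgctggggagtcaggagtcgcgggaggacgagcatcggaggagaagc
The window at the downstream start of Mest held 2 copies of TGCCGC and that of Nnat held 1, whereas the upstream start of Mest and the start of Peg3 held none. Of all 32851 promoters of that length, 11.6% held at least 1 copy and 1.53% at least 2. TGACG was found on both strands in the Peg3 window, as the overlapping arms of the palindrome TGACGTCA, and in neither Mest window nor that of Nnat. Of all promoters, 20.8% held the short form and 1.79% the palindrome. The third motif searched, GCCATNT for the factor YY1, was present only in the downstream Grb10 window, against 15.1% of all promoters. No base was shared between TGCCGC and TGACG in these windows. Over the 10 promoter entries of 7 members, the number of CG dinucleotides, letters that can be methylated, ran between 8 at the upstream start of Mest and 45 at the upstream start of Grb10. The median over all promoters was 7, and whether these windows carry an imprint was not tested. Such matches describe letters, not bound sites, and H19, Cdkn1c and Sgce had no entry.

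Mest and H19 also carry microRNAs inside their bounds, shown because a probe for the host says nothing about the mature products, which were not measured on these arrays. Capitals mark the seed, bases 2 to 8.
miR-335-5p, inside Mest: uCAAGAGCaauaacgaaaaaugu
miR-335-3p, inside Mest: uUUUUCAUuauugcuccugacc
miR-675-5p, inside H19: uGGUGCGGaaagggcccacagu
miR-675-3p, inside H19: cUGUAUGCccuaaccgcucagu
The 4 seeds differ from one another, and 0 other mature mouse miRNAs in the table share any of them.

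The arrays differed in brightness. Raw intensity over gene probes had a median of 166 on day 3 and 78 on day 0, and empty spots had a median of 0 on both days with 95th percentiles of 9 and 7. Xbp1 itself read 13561 on day 3 and 20936 on day 0, and because its probe was not placed relative to the deletion here, this does not check the knockout label. All 8 fibroblast markers were detected on both days, with summed signals of 170410 on day 3 and 206302 on day 0. As read, 2 of them, Col1a1 (-1.06) and S100a4 (-1.56), were 2-fold lower on day 3. Vim was saturated on day 0 (44635.5 and 65473.5), so it was at least 1.47-fold lower on day 3 and the day 0 sum is a minimum. None of the 6 fat cell markers was detected on either day, their summed signal being 295.5 on day 3 and 82 on day 0. Closest to the threshold was Adipoq, at 120.5 on day 3 and 12 on day 0. Fabp4 (59.5 and 10.5), Cidec (52.5 and 12) and Plin1 (44 and 21.5) also read higher on day 3. Cd36 read 11.5 and 10.5, and Cfd read 7.5 and 15.5. None of 6 skeletal muscle and 2 trophoblast markers on the array was detected on either day. Of 4 endothelial markers, 2 were detected on day 3 and 3 on day 0. Pecam1, detected by 1 of its 2 probes, read 568.5 on day 3 and 189.5 on day 0. Tie1 read 125 and 125.5, and Kdr was above the threshold on day 0 only (17.5 and 168). The blood marker Cd68 was detected on both days by its brighter probe (268 on day 3 and 198.5 on day 0). Ptprc, the other of 2 blood markers on the array, was not detected. Among 3 liver markers, Alb was detected on both days (345 and 366), and Afp and Ttr on neither. Among 4 epithelial markers, Krt18 was detected on day 0 only (114.5 and 148), and Krt8, Epcam and Cdh1 on neither day. The part of these cell types in the members' values was not tested. Scatter between the 4 to 6 repeated spots of control features gave a technical SD for each difference, from the median feature and, in brackets below, pooled over features. It leaves out variation between cultures, extractions and hybridizations.

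Mest encodes an enzyme of the α/β hydrolase fold in the endoplasmic reticulum and is read from the paternal copy. Its single probe mMR029695 read 5654 on day 3 and 870 on day 0, raw 6493 and 694. The day 3 signal stood 6.50-fold above that of day 0, a difference of 2.70 on the log2 scale with a repeat-spot SD of 0.35 (0.82). In bulk RNA, a change in the number of cells that express a gene and a change in RNA per cell cannot be told apart. In the authors' table for the series the difference was 2.72, and over 16 other settings it ran between 2.14 and 3.23, so it was above 2-fold in each of them. Some of these settings change only the floor, the detection rule or dim signals. They repeat the quantile-normalized value of any probe detected on both days.

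Nnat encodes neuronatin, a small membrane proteolipid of the endoplasmic reticulum that is read from the paternal copy and is known to promote adipogenesis of the mouse 3T3-L1 line. Probe mMR026230 read 785 on day 3 and 389 on day 0, a difference of 1.01 on the log2 scale with a repeat-spot SD of 0.34 (0.74). The day 3 signal was therefore 2.02-fold that of day 0, at the line used to count. Nnat was higher on day 3 in every setting tried, 2-fold in 13 of 16, and under 2-fold with an offset of 50 (0.93), with the shift of all genes removed (0.98) and under median scaling over all gene probes (0.62). Nnat is also a gene of developing brain. Of 7 neural markers, 5 were detected on day 3 and 2 on day 0, with summed signals of 864.5 and 954.5. Tubb3 (129.5 and 347) and, by the 1 of its 2 probes that was detected, Nes (182.5 and 370.5) were 2-fold lower on day 3. Just above the threshold on day 3 only were Map2, by 1 of its 3 probes (128 and 10.5), and Sox2, by 1 of its 2 probes (127 and 67). Syp was above it on day 3 only (170.5 and 93.5), and neither Gfap nor Snap25 reached it. Their part in the Nnat signal was not tested.

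Peg3 encodes a large zinc finger protein, also called Pw1, that is read from the paternal copy and is found in several stem and progenitor cell types. It had 3 probes. Probe mMC020543 read 1463.5 on day 3 and 3987.5 on day 0, a difference of -1.45 on the log2 scale with an SD of 0.42 (0.58). Probe mMR001240 read 259 on day 3 and 1473 on day 0, a difference of -2.51 on the log2 scale with an SD of 0.38 (0.66). All 3 probes were lower on day 3, although the sizes differ between probes of the same gene. The third, mMR028786, was below the threshold on day 3 at 47.5 and read 169 on day 0, which bounds it at no less than 1.39-fold lower. By the brightest of the Peg3 probes the difference was under 2-fold in 1 of 16 other settings, with no normalization (-0.99).

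Ndn encodes necdin, a protein of the MAGE family, read from the paternal copy, that restrains cell division and is known to hold back adipogenesis in mouse preadipocytes. Probe mMC011842 read 1490.5 on day 3 and 2962.5 on day 0, a difference of -0.99 on the log2 scale with an SD of 0.42 (0.58). The day 3 signal was 1.99-fold lower, so Ndn missed the 2-fold line by less than the scatter of repeated spots. It was lower on day 3 in all 16 other settings and 2-fold lower in 9, with values between -1.62 and -0.53. The authors' table, at -1.002, is among those 9, and settings that repeat the quantile-normalized value are not.

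Sgce, Plagl1 and Dlk1, all read from the paternal copy, gave no usable difference. Sgce encodes ε-sarcoglycan of the dystrophin-associated complex, and its probe mMC004958 read 80.5 on day 3 and 24 on day 0, raw 111 and 13. Plagl1 encodes a zinc finger transcription factor that arrests the cell cycle and regulates other imprinted genes, and mMC024029 read 10 on day 3 and 9 on day 0. The first of these was brighter on day 3 on a dim scale, and the second lay at the floor of 10 on both days. The Dlk1 probes mMR029420 and mMC011839 read 14 and 1.5 on day 3, against 7 and 10.5 on day 0. Raw Sgce signals exceeded the 95th percentile of empty spots on both days, as did 89.3% of gene probes on day 3 and 81.0% on day 0. Both Dlk1 probes lay near the empty spots, with raw values of 20 and 3 on day 3 and 4 and 6 on day 0. Gapdh, which almost every cell uses and which was picked once its values were known, also read under the threshold, at 19.5 on day 3 and -0.5 on day 0. That 1 probe shows only that a signal under the threshold need not mean a silent gene.

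**Figure D1:**
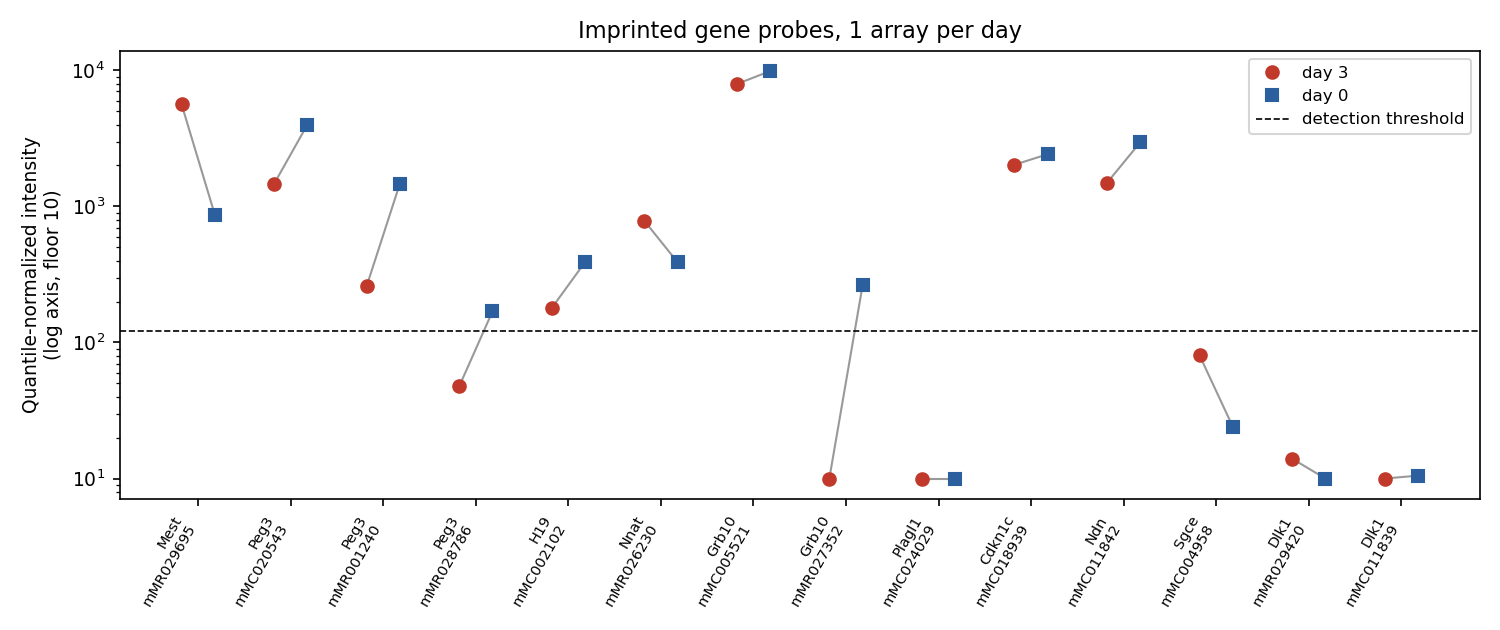
Quantile-normalized intensity (log axis, signals under 10 drawn at 10) of each of the 14 imprinted gene probes on day 3 (circles) and day 0 (squares), 1 array each, with the detection threshold of 122 dashed. Mest and Nnat were brighter on day 3, the 3 Peg3 probes, H19 and Ndn were brighter on day 0, and the Plagl1, Sgce and Dlk1 probes lay under the threshold on both days.

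H19 gives a long non-coding RNA read from the maternal copy that is abundant in the embryo. Its probe mMC002102 read 179 on day 3 and 389 on day 0, a difference of -1.12 on the log2 scale with an SD of 0.39 (0.71). The day 3 signal was 2.17-fold lower, and it was lower in all 16 other settings. The size depended on the values used: -0.71 in the authors' table and -0.29 with no normalization, and 2-fold in 9 of the 16. Those 9 include settings that repeat the quantile-normalized value.

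Cdkn1c encodes p57Kip2, an inhibitor of cyclin-dependent kinases read from the maternal copy. Probe mMC018939 read 2025 on day 3 and 2421 on day 0, a difference of -0.26 on the log2 scale that was smaller than its repeat-spot SD of 0.42 (0.58). The sign turned to 0.22 with no normalization, a setting that puts the median of all detected genes at 0.67, and Cdkn1c was under 2-fold in all 16 other settings.

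Grb10 encodes an adaptor that binds the insulin and IGF1 receptors and dampens their signalling, and it is read from the maternal copy in most mouse tissues outside the brain. Its 2 probes gave different pictures. Probe mMC005521 read 7935 on day 3 and 9874 on day 0, a difference of -0.32 on the log2 scale with an SD of 0.36 (0.90), and it was 0.09 with no normalization. Probe mMR027352 was below the threshold on day 3, at 8.5, and read 264.5 on day 0, at least 2.17-fold lower on day 3. The bright probe differed by less than the repeat-spot scatter, whereas the dim one was close to the empty spots' 95th percentile of 9 on day 3, at raw 12, and far above that of 7 on day 0, at raw 189. Where these probes lie on the Grb10 transcripts was not analysed here, and what sets them apart was not tested.

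**Figure D2:**
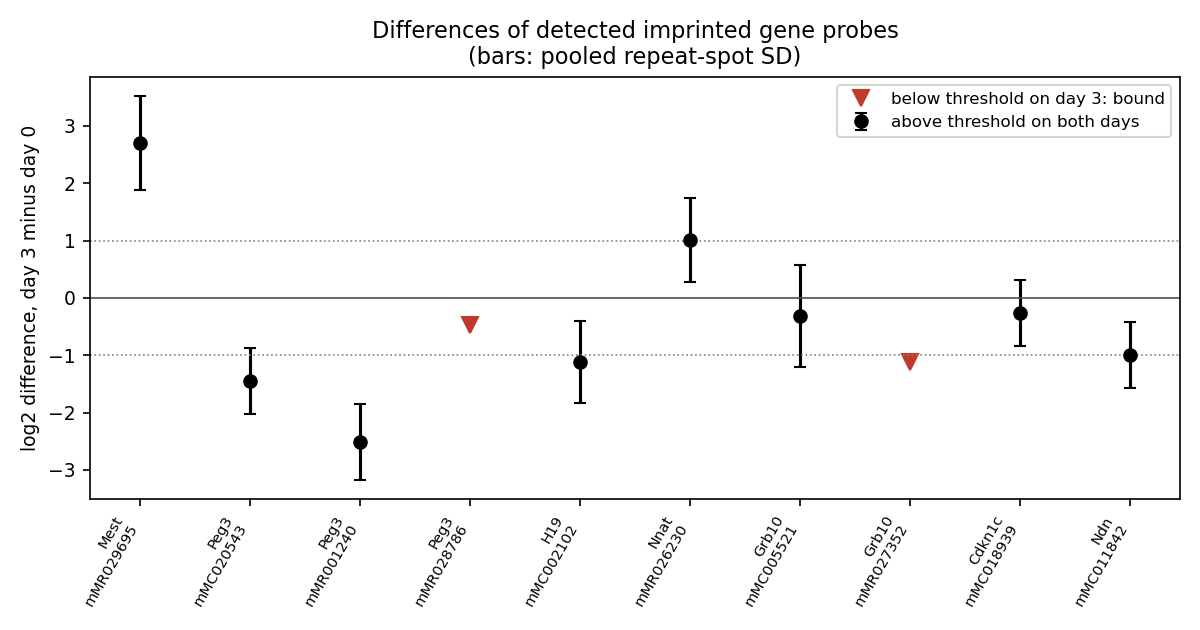
Log2 difference, day 3 minus day 0, of the 10 imprinted gene probes detected on at least 1 day; circles are probes above the threshold on both days with bars for the pooled repeat-spot SD, and triangles are probes below it on day 3, drawn at their bound. The bars of Mest, Nnat, both bright Peg3 probes, H19 and Ndn do not reach 0, and those of Grb10 (mMC005521) and Cdkn1c do.

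Split by the copy they are read from, 4 of 7 paternally expressed members were detected, 2 of them 2-fold higher and 1 lower on day 3, with a median of 0.01. All 3 maternally expressed members were detected, 0 were 2-fold higher and 1 was 2-fold lower, with a median of -0.32, beside 12.8% higher and 10.3% lower among all detected genes. With so few genes, chosen on these values, the classes are described and not compared.

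**Figure D3:**
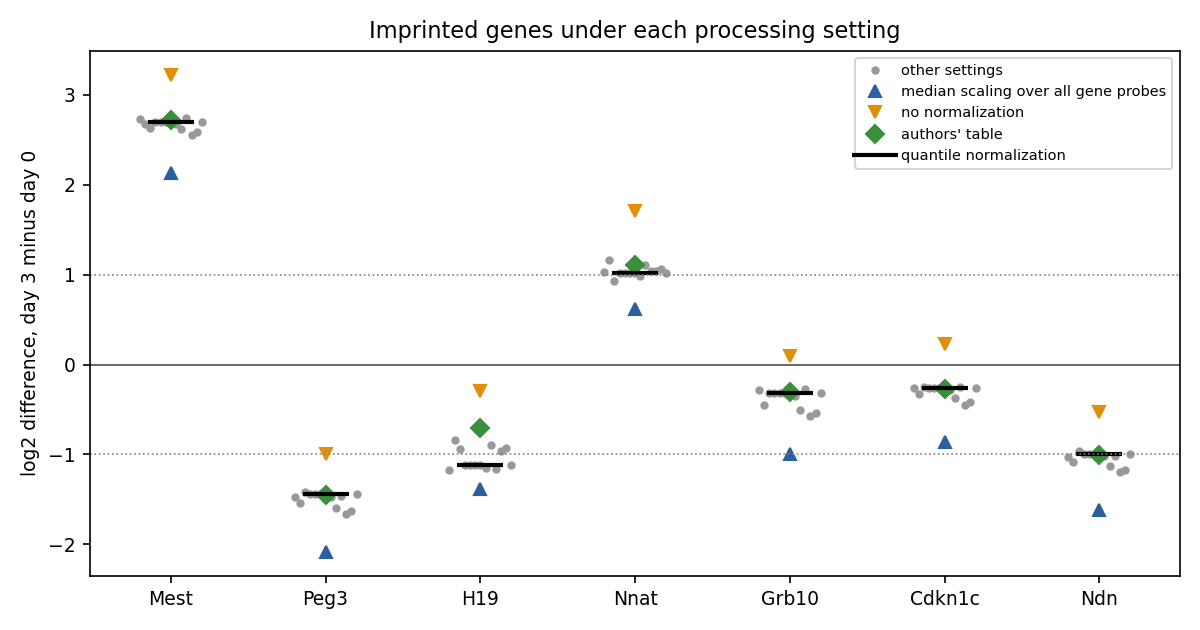
Log2 difference, day 3 minus day 0, of the brightest probe of each of the 7 detected imprinted genes under quantile normalization (black line) and 16 other settings (symbols). Mest and Nnat stay above 0 and Peg3, H19 and Ndn below 0 in each setting, while Grb10 and Cdkn1c are above 0 with no normalization.

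Imprinted genes sit in clusters, and the genes beside the members were set against them. Of 12 direct neighbours listed, 10 had probes and 8 were detected. As read, 0 of them were 2-fold higher and 1 was 2-fold lower on day 3, beside 12.8% and 10.3% of all detected genes. With so few neighbours nothing is read from these counts. Copg2, which encodes a coat protein of transport vesicles and lies next to Mest, read 1863 on day 3 and 1509.5 on day 0 (0.30), and Blcap, whose intron holds Nnat, read 3255.5 and 2081 (0.65). Both were above 0, as Mest and Nnat were, at less than 2-fold, and Copg2 turned to -0.29 under median scaling over all gene probes. Beside Peg3, the zinc finger gene Zim1 read 1065 on day 3 and 624 on day 0 (0.77), and the deubiquitinase gene Usp29 was above the threshold on day 3 only (166.5 and 89.5, at least 1.36-fold). These stood on the other side of 0 from Peg3 in every other setting that gave them a value, 16 for Zim1 and 14 for Usp29.

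Igf2, the growth factor gene beside H19, read 37687.5 on day 3 and 65469 on day 0, where its raw signal was saturated, so it was at least 1.74-fold lower on day 3. It lay below 0 in all 16 other settings, as H19 did, and Igf2 was 2-fold lower in 5 of them. Meg3, a maternally expressed non-coding RNA gene beside Dlk1, read 1396 on day 3 and 865.5 on day 0 (0.69), above 0 in all 16 settings, while Dlk1 was too dim to compare. Near Cdkn1c, the placental growth inhibitor gene Phlda2 read 137 on day 3 and 179 on day 0 (-0.39), and it was above 0 in 3 of 15 other settings, including 0.62 with no normalization and 0.07 when scaled on probes detected on both days. Beside Grb10, the actin nucleator gene Cobl read 269.5 on day 3 and 610.75 on day 0, a difference of -1.18 on the log2 scale with an SD of 0.34 (0.74). As read, it was the only neighbour with a 2-fold difference by its brightest probe, although saturated Igf2 may have exceeded that line. The other Cobl probe did not reach the threshold (42 and 9), and Cobl differed by -0.46 with no normalization. The decarboxylase gene Ddc, also beside Grb10, and Magel2, beside Ndn, did not reach the threshold. Peg10, beside Sgce, and Kcnq1ot1, in the Cdkn1c domain, had no probe under those symbols.

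A wider set of mouse genes listed as imprinted was described in the same way. The parental copies were not told apart, so whether any listed gene or member was imprinted in these cells was not tested. Of 68 listed besides the 10, 55 were on the array and 34 were detected. Of these, 3 stood 2-fold above day 0, or 2 with dim signals set to the threshold. Another 2 stood 2-fold under it, with saturated genes such as Igf2 counted as read. That is 8.82% higher and 5.88% lower, beside 12.8% and 10.3% of all detected genes, and their median of -0.01 lay beside 0.03 for all. The largest difference belonged to Dio3, the enzyme gene that inactivates thyroid hormone, which lies in the same imprinted domain as Dlk1 and Meg3. Dio3 read 527.5 on day 3 and 5786 on day 0, a difference of -3.46 on the log2 scale with an SD of 0.35 (0.82). Its day 3 signal was 11.0-fold lower, and the difference ran between -4.02 and -2.93 over the 16 other settings.

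The 3 higher genes were Adam23, Slc22a2 and Rasgrf1. Adam23, a cell adhesion gene, read 1416 on day 3 and 581.5 on day 0 by its brightest probe (1.28), and its other probe gave 1.39. Slc22a2, an organic cation transporter gene of the Igf2r domain, read 1260 on day 3 and 558.5 on day 0 (1.17). Both were under 2-fold in 1 of 16 settings, median scaling over all gene probes (0.79 for Adam23 and 0.69 for Slc22a2). Rasgrf1, a Ras activator gene, read 135 on day 3 and was below the threshold at 38 on day 0, at least 1.11-fold higher on day 3. The second gene on the lower side, after Dio3, was Cobl.

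The proteins that the members are known to bind or act with were taken as a further list of 42 genes, of which 37 were on the array and 33 were detected. On day 3, 3 were 2-fold higher and 6 were 2-fold lower, 9.09% and 18.2% of those detected beside the 12.8% and 10.3% of all genes, with a median of 0.00. Of the 6 lower ones, 4 are cyclin genes set against p57Kip2, the product of Cdkn1c. The S-phase cyclin gene Ccne2 read 185 on day 3 and 890.5 on day 0 (-2.27), and Ccnd1, the G1 cyclin gene, read 2677 on day 3 and 11464.5 on day 0 (-2.10), with its other 3 probes between -3.86 and -2.34. Ccna2 (-1.41) and Ccne1 (-1.01) were smaller, and with no normalization they came to -0.96 and -0.46. The kinase genes differed by less, Cdk4 by -0.66 and Cdk2 by -0.30, or 0.19 with no normalization. Limk1, a kinase of the actin cytoskeleton that p57Kip2 binds, read 1987 on day 3 and 906 on day 0 (1.13, and 0.59 under median scaling over all gene probes).

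By their brightest probes as read, partners of the other members were mostly within 2-fold. Maged1, a partner of necdin, was saturated on day 3 (65472.5 and 55158.5), so it was at least 1.19-fold higher and may exceed 2-fold. Ppp1cc, a partner of neuronatin, gave 0.29 by its brightest probe, but mMR027583 read 125.5 on day 3 and 729.5 on day 0 (-2.54). What sets the Ppp1cc probes apart was not tested. Siah1b, a ubiquitin ligase gene of the family through which PEG3 acts, read 960.5 on day 3 and 2926.5 on day 0 (-1.61), its 3 other probes were lower on day 3 as well, and the related Siah1a gave 0.22. Hes1, a target of Notch signalling, which DLK1 can dampen, read 361.5 on day 3 and 872.5 on day 0 (-1.27, and -0.61 with no normalization), whereas Sox9, through which DLK1 is known to hold back mouse preadipocytes, gave -0.73. Fn1, the fibronectin gene, read 15748 on day 3 and 3789 on day 0 (2.06). Ngfr, the neurotrophin receptor gene whose product binds necdin, read 395 on day 3 and 138.5 on day 0 (1.51), and its other probe did not reach the threshold.

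Of 4 detected partners of GRB10 none differed 2-fold as read, beside 12.8% higher and 10.3% lower among all detected genes. Nedd4 was saturated on day 3 (65470.5 and 56653.5), so it was at least 1.16-fold higher and may exceed 2-fold. The median of the 4, 0.35, lay above 0 and rests in part on Nedd4. Under median scaling over all gene probes, Igf1r (-0.39), Gigyf1 (-0.13) and Nedd4 (-0.65) were below 0, and all detected genes had a median of -0.49. Insr, the insulin receptor gene, read 310.5 on day 3 and 195.5 on day 0 (0.67), and it was above 0 in all 15 other settings that gave it a value. Igf1r, the IGF1 receptor gene, gave 0.11 by its brightest probe (900 on day 3 and 833 on day 0), but probe mMC009262 read 4.5 on day 3 and 4270.5 on day 0, at least 35.0-fold lower. As with Grb10, probes of the same gene disagreed, and what sets them apart was not tested. Of the other sarcoglycan genes and the dystrophin-associated genes listed with Sgce, 4 of 6 on the array were detected and 0 differed 2-fold. The 4 were Sgcb, a sarcoglycan gene, Dag1, which encodes dystroglycan, Sspn, which encodes sarcospan, and Dmd, the dystrophin gene. By its brightest probe Sgcb read 2690.5 on day 3 and 2437 on day 0 (0.14), and its other probe read 2474.5 and 1281 (0.95). The brightest probe turned to -0.48 under median scaling over all gene probes, close to the median of all detected genes there.

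**Figure D4:**
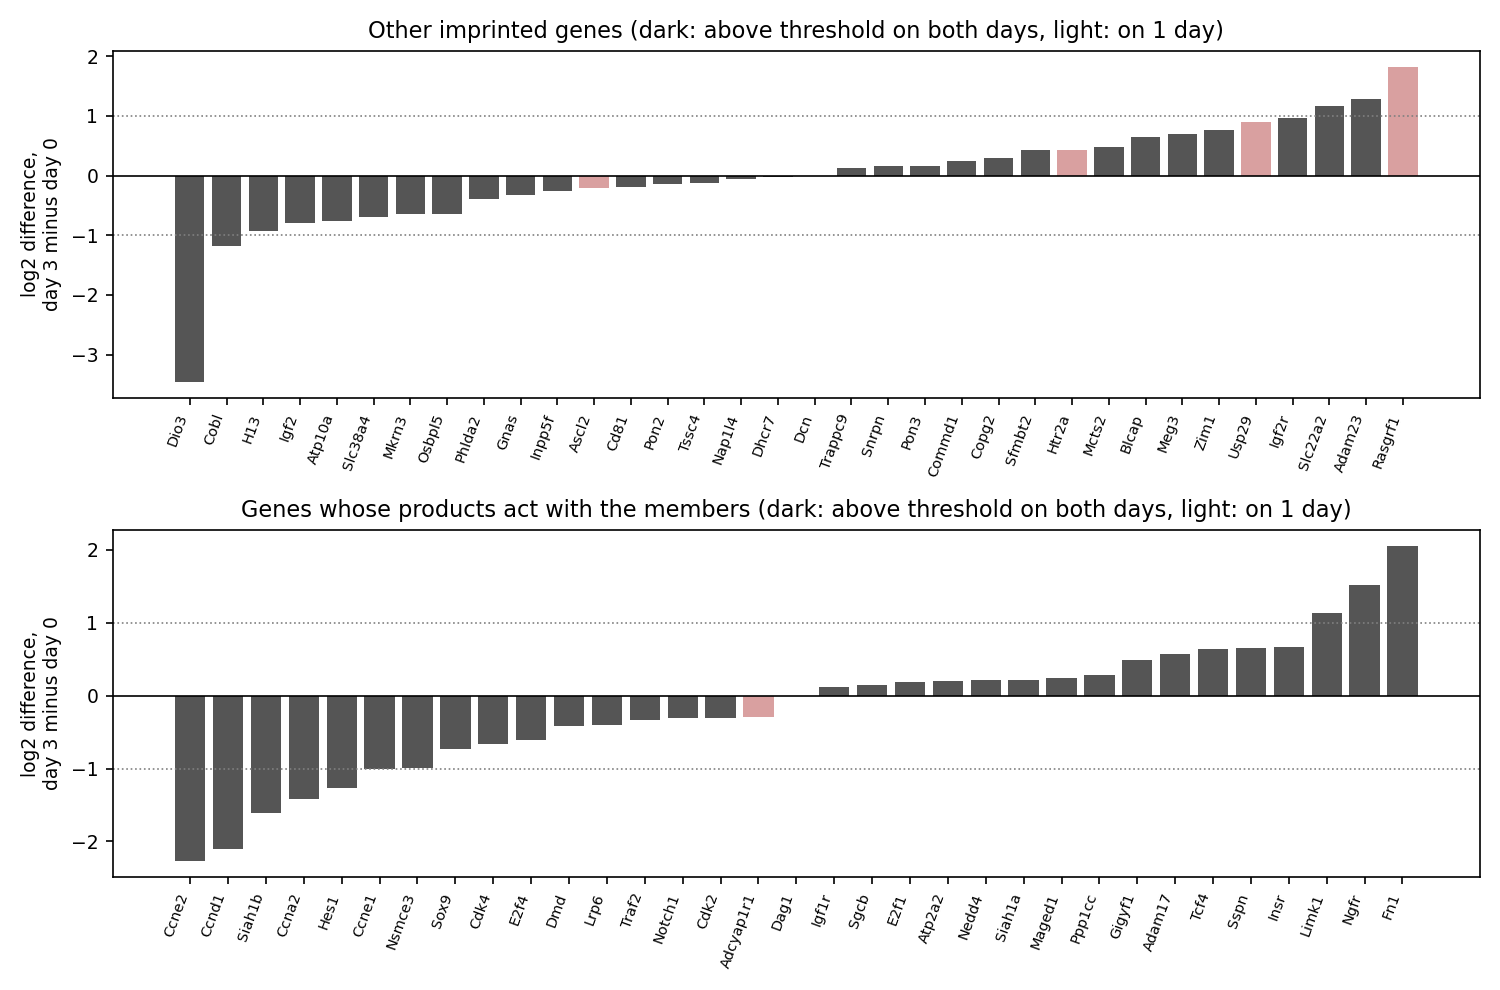
Log2 difference, day 3 minus day 0, by the brightest probe of the 34 other imprinted genes (upper panel) and the 33 partner genes (lower panel) detected on at least 1 day, as read, with dotted lines at 2-fold. Dio3 stands at -3.46 in the upper panel, and the cyclin genes Ccne2 and Ccnd1 and the matrix gene Fn1 stand at the ends of the lower one.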

How the data were processed

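Messenger RNA was measured in 2 samples, 1 per day, on single-colour arrays; per the labels' protocols, column-extracted total RNA (1 µg) was amplified and labelled with Cy5 by Phalanx. The deposited per-sample tables hold 1 linear intensity for each of 39200 spots, 7402 of them empty, with background apparently subtracted by the authors, since empty spots centre on 0. Scanner, image software and background method are not stated in the labels or files. The authors also deposited a table for the series, which holds normalized linear intensity values for 11482 of 29922 gene probes, and served as an alternative.

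Intensities of gene probes were brought to a common distribution by quantile normalization (R 4.3.3, limma 3.58.1), floored at 10 and converted to log2. The detection threshold was 122, and raw signals of 65000 or more counted as saturated. Names came from the platform annotation, updated through GRCm38.p6: 21020 probes had 1 symbol, 8902 none and 0 several, giving 16637 genes, each represented by its brightest probe by mean log2 signal. A bound is given for a gene that was dim or saturated on 1 of the days. With 1 array per group there was no test. Precision is limited by having 1 array per day.

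The members, the list of 68 other imprinted genes and the list of 42 partner genes were chosen with earlier results of these data known. Named genes were all members, the direct locus neighbours, and every detected gene of both lists with a 2-fold difference; other partner genes named beside them, and Gapdh, were chosen after their values were seen. Motifs were searched on both strands of RefSeq promoters. The 17 alternatives covered normalization, offset, floor, detection, probe choice and the authors' table; setting signals under the threshold to it was added after the data were seen.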

Additional observations from a re-analysis of the deposited data

How the results depend on the processing

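The direction of Mest, Nnat, Peg3, H19 and Ndn held in all 16 other settings run for their brightest probes, and Grb10 and Cdkn1c were above 0 only with no normalization. Settings that change only the floor, the detection rule or dim signals cannot alter a probe detected on both days. In such tallies they repeat the quantile-normalized value and are no separate check. No difference reversed among those of at least 2-fold. Over all detected genes the median difference was 0.03, and it was -0.49 when median-scaled on all gene probes and 0.67 with no normalization, so signs are read relative to it.

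The count of members 2-fold higher, 2 as reported, was 1 when median-scaled on all gene probes, with an offset of 50 and with the quantile shift removed, since Nnat sits at the line. In the other direction, the higher count was 3 with no detection filter and with a threshold at the 95th percentile of empty spots, where Sgce (1.75) was counted. The count 2-fold lower, also 2, was 1 with an offset of 50 and 0 with no normalization. It was 3 under median scaling on all gene probes, under cyclic loess and with the mean of all detected probes. With the shift removed it was also 3 under quantile normalization and cyclic loess. The members' median of -0.32 was -0.996 when median-scaled on all gene probes, 0.094 with no normalization, -0.13 both with no detection filter and with a threshold at the 95th percentile of empty spots, -0.99 with the mean of all detected probes, and, with the shift removed, -0.58 with no normalization and -0.54 when scaled on probes detected on both days.

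For the other imprinted genes, the median of -0.01 was -0.45 when median-scaled on all gene probes, 0.67 with no normalization and 0.11 when scaled on probes detected on both days. For the partner genes the median of 0.00 was -0.52, 0.57, -0.30 with the mean of all detected probes, and -0.10 with no normalization and the shift removed, the first 2 being median scaling on all gene probes and no normalization.

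Of all detected genes, 1361 were higher and 1093 lower. The counts were 829 and 2586 when median-scaled on all gene probes, 3940 and 315 with no normalization, 2238 and 1797 both with no detection filter and with the empty-spot threshold, and 814 and 695 in the authors' table, which holds 8211 of the genes. Higher genes made up 55.5% of 2-fold genes as reported, 24.3% when median-scaled on all gene probes and 92.6% with no normalization. Where no value or construction above shows it, the cause was not tested.

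No paired analysis was possible because each day has 1 array. Signal over background limits Plagl1, Sgce and Dlk1, for which no fold is given.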
